A study of Homo sapiens with 48 samples.

Results

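The genes described here encode the subunits, assembly chaperones and activators of the proteasome. They are the 43 protein-coding genes of GENCODE 29 whose symbol is PSMA, PSMB, PSMC, PSMD or PSME followed only by digits, out of 58721 genes in the deposited tables. The rule uses symbols and no measured value, but it was chosen with earlier results of these data known. By textbook role they comprise 7 genes of the alpha ring, 4 non-catalytic and 3 catalytic genes of the beta ring, 3 immunoproteasome genes, 6 ATPases and 3 other subunits of the base, 8 lid subunits, 3 base chaperones, 4 activators and 2 subunits known from testis or thymus. In both sets of libraries 41 of the 43 were expressed enough to be tested.

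RNA came from 3 versions of DLD-1, an established line from a human colorectal tumour, that all carry TIR1, a plant receptor through which auxin directs any protein bearing an AID tag (a degron) to destruction. The parental line has no degron, whereas in CNOT1-AID and CNOT4-AID cells it is on CNOT1, the scaffold of the CCR4-NOT deadenylase complex, or on CNOT4, a ubiquitin ligase that associates with that complex. The steady-state set holds 24 libraries: each line with 1 mM auxin for 8 or 24 h or untreated at those times, with 2 libraries a group. The triptolide set holds another 24 libraries: each line with 1 mM auxin for 2 h and then with 1 µM triptolide, an inhibitor of transcription initiation, for 0, 3, 6 or 12 h, again with 2 libraries a group. The labels do not say whether a tagged line is 1 clone or whether the libraries of a group came from separate cultures, so p-values measure only the spread between libraries, which may be technical. The degron removes protein, so the mRNA of CNOT1 or CNOT4 does not check that removal, and protein was not measured in the files used here.

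The proteasome is the protease that degrades most ubiquitin-tagged proteins of the nucleus and cytosol. Its barrel-shaped core is a stack of alpha and beta rings with the active sites inside, and a cap made of a base, which unfolds substrates with ATPases, and a lid, which removes ubiquitin, feeds it. Interferon replaces the constitutive catalytic beta subunits with immunoproteasome subunits that favour peptides for MHC class I presentation, and the transcription factor NFE2L1 raises the genes of the complex together when proteasome activity falls.

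Untreated parental cells expressed the constitutive core, base and lid genes at 35.3 TPM (PSMA5) to 224 TPM (PSMB3) and the immunoproteasome genes at lower levels. Levels are in TPM, which correct for transcript length, and are means of the 4 untreated parental libraries. The most abundant members were PSMB3 at 224 TPM (211 to 231), PSMB4 at 221 (215 to 231) and PSMA7 at 216 (209 to 222), whose ranges overlap, so their order is not resolved. Class medians ran from 173 TPM in the alpha ring and 170 in the non-catalytic beta genes through 125 in the base subunits that are not ATPases, 85.5 in the lid and 84.5 in the base ATPases to 81.9 in the activators and 31.9 in the base chaperones. The catalytic subunits PSMB7, PSMB5 and PSMB6 stood at 144, 120 and 104 TPM without overlap between their ranges. Their immunoproteasome counterparts stood at 21.2 TPM for PSMB8 (20.4 to 22.2), 14.5 for PSMB10 (13.8 to 15.3) and 1.53 for PSMB9 (1.45 to 1.6), also without overlap. PSMA8, a testis alpha subunit, was listed at 0 in every library of both sets, and PSMB11, a thymus beta subunit, did not exceed 0.02 TPM or 4 counts.

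Some libraries stood apart. In the triptolide set the 2 parental libraries at 0 h agreed least, with a standard deviation of 0.43 in the log2 difference of the members, against 0.055 to 0.18 in the other pairs of that set. Both CNOT4-AID libraries at 12 h held the largest shares of ERCC spike-in RNA, 2.25% and 3.92% of all counts, against 0.941% to 2.11% elsewhere. In the steady-state set, small nuclear RNA took 20% to 34.1% of TPM in CNOT4-AID libraries other than those with auxin for 24 h. It took 15.9% to 19.3% in parental and CNOT1-AID libraries. Library totals were 18216427 to 26723618 counts, of which members took 0.543% to 0.656% of gene counts, while the depth behind the TPM table is unknown. Of 11 markers of colon epithelium 10 averaged at least 1 TPM, against 1 of 7 blood, 0 of 5 fibroblast and 0 of 4 endothelial markers.

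After CNOT1 was targeted with auxin, the immunoproteasome genes PSMB8 and PSMB9 rose at both times, most of the constitutive core, base and lid genes were lower than other genes at 8 h, and many of these had recovered or risen by 24 h. Changes were fitted with limma on log2(TPM + 0.5) after TMM scaling, which sets each library against the bulk of its genes, and a call is an adjusted p under 0.05 over all 14921 genes tested. At 8 h, 8 of the 41 members were higher and 25 lower, where 33.1% of all genes tested were higher and 29.8% lower, and the members' median log2 change was -0.18. At 24 h, 21 were higher and 11 lower, beside 36.7% and 34.8% of all genes, and the median was 0.14. In bulk RNA, fewer cells of a kind and less RNA per cell cannot be told apart.

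The direction of these changes depended on the scaling, so the main counts are given on both scales. Auxin responses of single genes are on the TMM scale unless ERCC scaling is named. TMM divided the TPM of auxin libraries by 1.23 times the untreated factor at 8 h and 1.2 times at 24 h, while ERCC scaling, relative to spike-in RNA added to a fixed 500 ng of RNA, used 0.888 and 0.921 times. TPM ratios as deposited therefore lie above the TMM folds and below the ERCC folds. With ERCC scaling the median of all genes moved to 0.41 at 8 h and 0.31 at 24 h, and that of the members to 0.29 and 0.52. On that scale 25 members were higher at 8 h (52.1% of all genes) and 1 lower (9.85%), and 30 were higher at 24 h (47%) and 1 lower (19.4%). The 8 members higher with TMM at 8 h and the 21 at 24 h were also higher with ERCC scaling, whereas 9 of the 25 lower ones at 8 h and 1 of the 11 at 24 h were higher, and only PSMD10 was lower on both scales at both times. Without CNOT1-AID auxin replicate 2 or untreated replicate 2 at 8 h, 4 or 5 members were higher in place of 8.

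**Figure D1:**
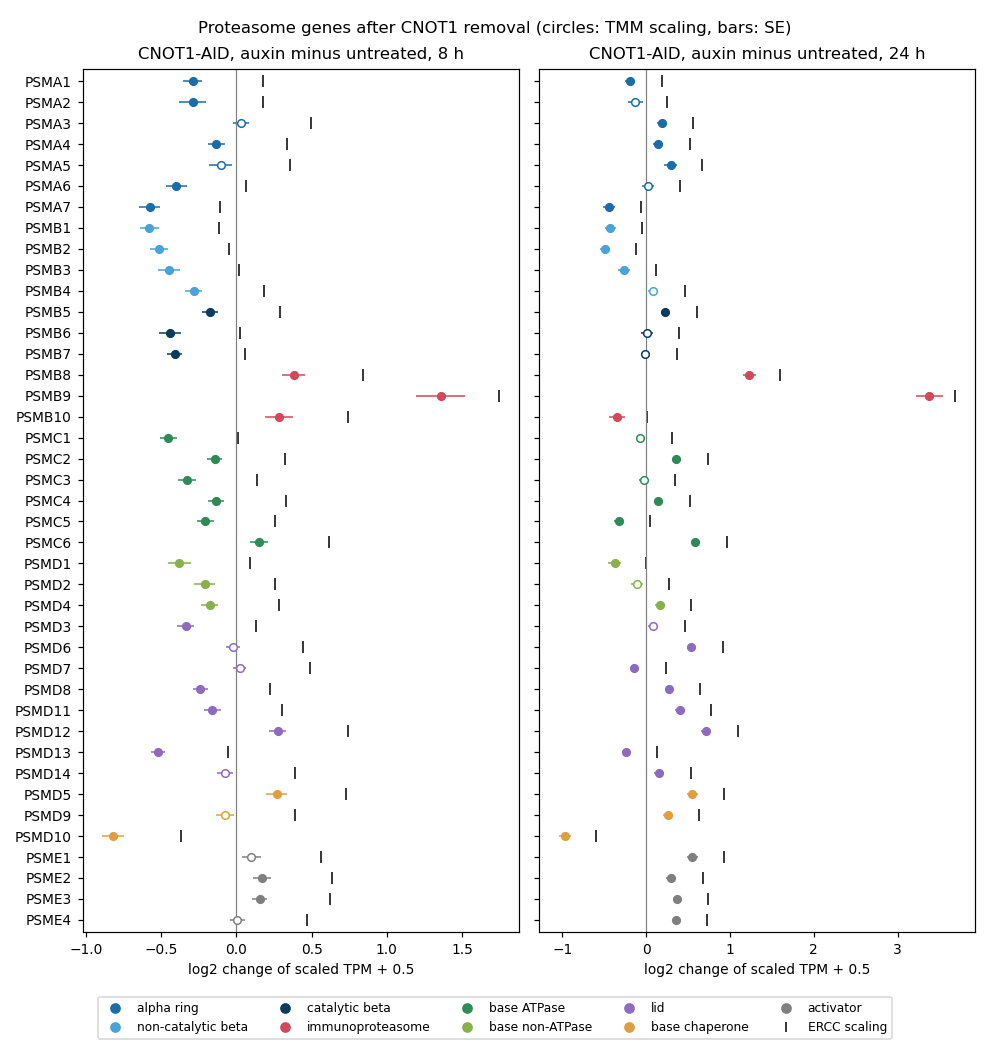
Auxin minus untreated in CNOT1-AID cells at 8 h (left) and 24 h (right) for the 41 tested members, as log2 change of scaled TPM + 0.5. Circles are TMM estimates with their SE, filled where the adjusted p is under 0.05 and coloured by role, and black ticks are ERCC estimates. PSMB9 lies farthest to the right at both times and PSMD10 farthest to the left, and the ticks lie to the right of every circle.

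The immunoproteasome genes PSMB8 and PSMB9 are transcribed in opposite directions in the MHC region of chromosome 6, PSMB8 on the reverse strand at 32840717 to 32844703 and PSMB9 on the forward strand at 32844136 to 32859585 (GRCh38), where the PSMB9 model overlaps PSMB8, PSMB8-AS1 and TAP1. The kit keeps strand, but the strand setting of the counting is not given in the sources used here, so reads of overlapping genes may not be separated. Their promoter windows are shown because no other members rose as much. They are RefSeq sequences (GRCh38.p14, 250 bases before to 50 after a start, 5′ to 3′ on the gene's strand). Capitals mark matches on either strand to TGACNNNGC (core letters of the site of NFE2L1 and NFE2L2), CCAAT (the NF-Y box), CCGGAAG (an ETS core), TTCNNNGAA (the STAT core) or the interferon-response core (GAAA, any 2 bases and again GAAA). The PSMB9 window, at a start inside the span above, is chr6:32853942-32854241 on the forward strand, with a match to CCAAT and one to TGACNNNGC. Of the PSMB8 windows, that at chr6:32843998-32844297 on the reverse strand is shown, with one match to TTCNNNGAA and one to the interferon-response core. The other PSMB8 window, chr6:32844630-32844929, is not shown and held 0 matches to each of these motifs.
PSMB9: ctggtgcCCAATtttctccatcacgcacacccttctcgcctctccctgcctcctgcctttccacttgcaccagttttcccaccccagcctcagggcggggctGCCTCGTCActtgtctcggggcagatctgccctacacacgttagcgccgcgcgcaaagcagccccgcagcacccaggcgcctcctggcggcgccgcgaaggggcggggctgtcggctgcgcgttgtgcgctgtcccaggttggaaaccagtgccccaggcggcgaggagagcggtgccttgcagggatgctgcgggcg
PSMB8: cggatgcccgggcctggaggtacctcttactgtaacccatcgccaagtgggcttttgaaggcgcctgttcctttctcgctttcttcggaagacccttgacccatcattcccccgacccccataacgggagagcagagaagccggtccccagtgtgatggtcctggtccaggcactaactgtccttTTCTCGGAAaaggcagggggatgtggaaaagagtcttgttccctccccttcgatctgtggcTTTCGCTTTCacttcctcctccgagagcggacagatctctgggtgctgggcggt

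PSMB9, the immunoproteasome counterpart of the caspase-like subunit PSMB6, was nearly silent in untreated CNOT1-AID cells and rose strongly with auxin. Its untreated libraries held 0.82 and 1.18 TPM at 8 h and 0.91 and 1.11 TPM at 24 h. The auxin libraries held 4.35 and 3.76 TPM at 8 h and 19.45 and 17.45 TPM at 24 h, all above every untreated library. The fitted rise was 2.56-fold at 8 h (log2 1.36 ± 0.16 SE, adjusted p = 1.72e-06) and 10.4-fold at 24 h (3.38 ± 0.16, adjusted p = 1.14e-11), on log2(value + 0.5), which understates low genes. With ERCC scaling the log2 changes were 1.75 and 3.69.

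PSMB8, which replaces the chymotrypsin-like subunit PSMB5, also rose. Untreated CNOT1-AID libraries held 17.2 and 16.3 TPM at 8 h and 18.2 and 17.05 TPM at 24 h. With auxin they held 26.8 and 27.15 TPM at 8 h and 50.9 and 49.9 TPM at 24 h, so the groups were far apart. PSMB8 thus changed by a log2 of 0.38 ± 0.076 at 8 h (adjusted p = 0.000319) and 1.23 ± 0.076 at 24 h (2.34-fold, adjusted p = 2.28e-10). Its untreated CNOT1-AID values lay below the 20.4 to 22.2 TPM of untreated parental cells. PSMB10, which replaces the trypsin-like subunit PSMB7 and lies outside the MHC region, on chromosome 16 at 67934502 to 67937087, moved up at 8 h and then down. Its libraries held 13.1 and 13.5 TPM untreated against 18.9 and 21.2 with auxin at 8 h, and 17.2 and 15.0 against 14.4 and 15.5 at 24 h, where the groups overlap. The fitted log2 change was 0.29 ± 0.093 at 8 h (adjusted p = 0.0138) and -0.35 ± 0.093 at 24 h (adjusted p = 0.00289) with TMM but 0.01 at 24 h with ERCC scaling. Neither call held in every leave-one-out fit: the adjusted p reached 0.145 at 8 h without auxin replicate 2 and 0.109 without untreated replicate 2, and 0.0557 at 24 h without auxin replicate 1.

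The constitutive catalytic subunits were lower at 8 h on the TMM scale, and by 24 h PSMB5 was higher on both scales. PSMB5 went from 124 and 129 TPM untreated to 136 and 138 with auxin at 8 h, and from 122 and 124 to 176 and 169 at 24 h. Both auxin groups lie above their controls in TPM, and the fitted log2 change was -0.18 ± 0.051 at 8 h (adjusted p = 0.00658) and 0.22 ± 0.051 at 24 h (adjusted p = 0.000891) with TMM, or 0.29 and 0.60 with ERCC scaling. Without untreated replicate 1 the PSMB5 call at 8 h was lost (adjusted p = 0.0949). PSMB6 changed by -0.44 ± 0.075 at 8 h (adjusted p = 7.02e-05) and PSMB7 by -0.41 ± 0.05 (adjusted p = 1.83e-06) with TMM. Neither passed the test at 24 h on that scale (PSMB6 0.01, adjusted p = 0.944; PSMB7 -0.01, adjusted p = 0.846), and with ERCC scaling neither passed at 8 h and both were higher at 24 h (0.39 and 0.37, adjusted p = 0.00098 and 0.00069).

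Ratios within a library need no scaling between libraries. In CNOT1-AID cells PSMB9 amounted to 0.869% ± 0.214 (SD, n = 2) of PSMB6 in untreated and 3.92% ± 0.509 in auxin libraries at 8 h, and to 0.901% ± 0.139 and 13.6% ± 0.919 at 24 h. PSMB8 went from 13.2% ± 0.919 to 19.6% ± 0.0707 of PSMB5 at 8 h and from 14.4% ± 0.778 to 29.2% ± 0.495 at 24 h. Its rise at 8 h started below parental cells and ended near them, while at 24 h it ended above them. PSMB10 went from 8.56% ± 0.134 to 14% ± 1.7 of PSMB7 at 8 h and from 10.8% ± 0.636 to 8.4% ± 0.679 at 24 h. Both of the first ratios also stood higher with auxin in the other lines, by less: at 24 h PSMB8 went from 17.5% ± 0.495 to 20.8% ± 0.354 of PSMB5 in parental and from 16% ± 0.424 to 20.4% ± 1.41 in CNOT4-AID cells, and PSMB9 from 1.43% ± 0.113 to 2.31% ± 0.552 and from 1.63% ± 0.212 to 2.09% ± 0.0778 of PSMB6, without overlap. At 8 h PSMB9 to PSMB6 in parental cells (1.51% ± 0.0424 to 2.36% ± 0.226) and PSMB8 to PSMB5 in CNOT4-AID cells (15% ± 0.212 to 17.5% ± 0.919) did the same, while PSMB8 to PSMB5 in parental cells (18% in both) and PSMB9 to PSMB6 in CNOT4-AID cells (1.5% and 1.79%) overlapped. In CNOT1-AID cells at 24 h, then, 2 of the 3 immunoproteasome mRNAs gained on their constitutive partners and the other lost ground. The summed blood markers stood at 5.69 to 6.91 TPM in CNOT1-AID auxin libraries at 24 h against 0.78 to 0.83 in their controls. The fibroblast markers stood at 3.08 to 4.8 against 0.17 to 0.31, and the epithelial markers at 2798 to 2806 against 4072 to 4214. These sums rest on few genes, and KRT8 and KRT18, with means of 1601 and 1303 TPM over all libraries, lead the epithelial one. With TMM scaling 3 of 11 epithelial markers were higher and 7 lower. Only 2 of 7 blood markers and 1 of 5 fibroblast markers were tested, and each was higher. The part of these genes in the rise of PSMB8 and PSMB9 was not tested.

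**Figure D2:**
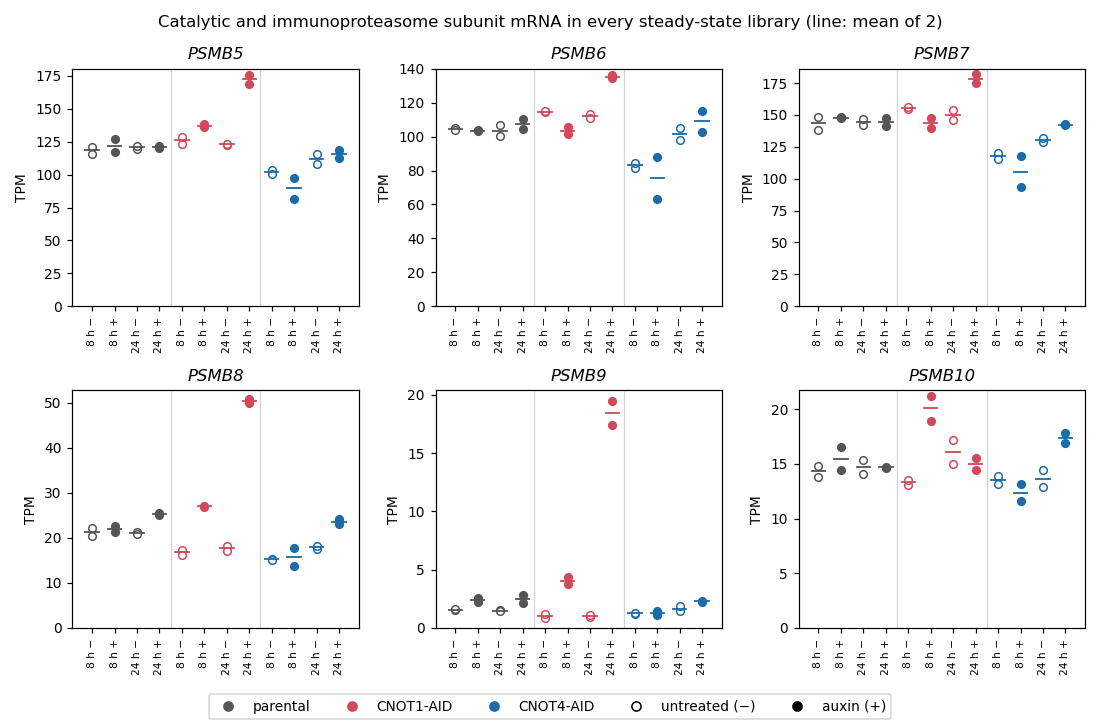
TPM (linear axis from 0) of the catalytic subunits PSMB5, PSMB6 and PSMB7 (top) and the immunoproteasome subunits PSMB8, PSMB9 and PSMB10 (bottom) in all 24 steady-state libraries. Points are libraries, open without and filled with auxin, and lines are means of 2. PSMB9 reaches 17.45 and 19.45 TPM in CNOT1-AID cells at 24 h and stays under 5 TPM in every other library.

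In the rest of the core, most alpha genes and all 4 non-catalytic beta genes were lower at 8 h on the TMM scale. Of the 14 constitutive core genes, catalytic ones included, 0 were higher and 12 lower at 8 h, and 4 were higher and 5 lower at 24 h, while ERCC scaling gave 4 higher at 8 h, 8 higher at 24 h and none lower. Within the alpha ring, which gates entry to the core, 5 of 7 were lower at 8 h, and 3 were higher and 2 lower at 24 h, close to the shares of all genes then (36.7% and 34.8%). PSMA7, on chromosome 20 at 62136735 to 62143440, was the alpha gene that fell most on the TMM scale at both times. It held 232 and 226 TPM untreated and 184 and 192 with auxin at 8 h, then 227.5 and 224 untreated and 196 and 201 with auxin at 24 h, without overlap. The log2 change was -0.58 ± 0.071 and -0.45 ± 0.071 (adjusted p = 2.25e-06 and 2.79e-05), and -0.11 and -0.07 with ERCC scaling, which did not pass the test. PSMA5 was the alpha gene with the largest rise at 24 h, from 35.1 and 34.4 to 53.6 and 48.8 TPM (log2 0.29 ± 0.075, adjusted p = 0.00232). All 4 non-catalytic beta genes were lower at 8 h, led by PSMB1 at -0.58 ± 0.066 (adjusted p = 8.86e-07), and 3 of 4 at 24 h, led by PSMB2 at -0.50 ± 0.06 (adjusted p = 1.09e-06). None of these 4 was lower with ERCC scaling.

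On the TMM scale the base held both lasting falls and a large rise. Of its 9 subunits 1 was higher and 8 lower at 8 h, and 4 were higher and 2 lower at 24 h. PSMC6, an ATPase of the ring that threads substrates into the core (chromosome 14, 52707172 to 52728587, forward strand), was the exception at 8 h. It went from 59.4 and 74.0 TPM to 92.0 and 89.1 at 8 h and from 71.4 and 65.7 to 130 and 118 at 24 h, with auxin libraries above all controls. On the log2 scale this was 0.15 ± 0.058 at 8 h (adjusted p = 0.0311), a call lost without untreated replicate 1 (adjusted p = 0.28) or either auxin replicate (0.149 and 0.0662), and 0.59 ± 0.058 at 24 h (1.5-fold, adjusted p = 9.11e-08). PSMC1, another ATPase with 13 processed pseudogenes by name that may share its reads, had the largest fall of the 6 ATPases at 8 h (-0.45 ± 0.055, adjusted p = 1.9e-06) and did not pass at 24 h (-0.07). PSMC5, which overlaps FTSJ3 on the other strand, was the ATPase that fell at 24 h (-0.33 ± 0.057, adjusted p = 6.67e-05). Among the base subunits that are not ATPases, the scaffold PSMD1 was lower by -0.38 at both times (SE 0.075, adjusted p = 0.000318 and 0.000257), while the ubiquitin receptor PSMD4 turned from -0.18 at 8 h to 0.16 at 24 h (adjusted p = 0.0149 and 0.0237), a rise lost without any library of that time but auxin replicate 1 (adjusted p up to 0.102). With ERCC scaling 6 base subunits were higher at 8 h and 7 at 24 h, and none was lower. On that scale PSMC1 was at 0.01 at 8 h, and PSMD1 at 0.09 at 8 h and 0.0019 at 24 h.

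Lid genes were more often lower than higher at 8 h and more often higher at 24 h. At 8 h, 1 of 8 was higher and 4 lower, and at 24 h 5 were higher and 2 lower, against 6 and 7 higher with ERCC scaling. PSMD12, a structural lid subunit (chromosome 17, 67337916 to 67366627, reverse strand), had the largest rise of any core, base or lid gene. Its libraries went from 54.9 and 69.7 TPM to 94.3 and 89.8 at 8 h, and from 68.2 and 60.1 to 132 and 121 at 24 h, with no overlap. The log2 change was 0.27 ± 0.057 at 8 h (adjusted p = 0.000476) and 0.71 ± 0.057 at 24 h (1.64-fold, adjusted p = 6.79e-09). PSMD6, a lid subunit of the same fold that overlaps PSMD6-AS1 and PSMD6-AS2, did not pass at 8 h (-0.02) and was higher at 24 h, from 86.8 and 80.7 to 151 and 142 TPM (log2 0.54 ± 0.048, adjusted p = 2.84e-08). PSMD13, which overlaps SIRT3, had the largest lid fall at 8 h (-0.52 ± 0.05, adjusted p = 1.05e-07) and 24 h (-0.25 ± 0.05, adjusted p = 0.000296), and neither fall was present with ERCC scaling (-0.06 and 0.13). The ratio of PSMD12 to PSMD13 within a library went from 35.4% ± 3.75 to 68.9% ± 1.13 at 24 h (SD, n = 2). These were the lid genes with the largest rise and fall in the same libraries, so this ratio adds no separate evidence.

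The windows upstream of PSMC6 and PSMD12 are printed because these 2 genes rose most among the constitutive base and lid. Both contain CCGGAAG, once each, and PSMD12 also has TGACNNNGC (chr14:52706950-52707249 for PSMC6, chr17:67366528-67366827 for PSMD12, RefSeq, GRCh38.p14).
PSMC6: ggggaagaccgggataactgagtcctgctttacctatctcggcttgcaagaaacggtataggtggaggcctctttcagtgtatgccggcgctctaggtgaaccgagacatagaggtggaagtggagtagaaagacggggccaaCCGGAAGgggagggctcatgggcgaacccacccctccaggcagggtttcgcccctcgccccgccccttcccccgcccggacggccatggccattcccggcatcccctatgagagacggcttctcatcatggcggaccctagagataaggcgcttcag
PSMD12: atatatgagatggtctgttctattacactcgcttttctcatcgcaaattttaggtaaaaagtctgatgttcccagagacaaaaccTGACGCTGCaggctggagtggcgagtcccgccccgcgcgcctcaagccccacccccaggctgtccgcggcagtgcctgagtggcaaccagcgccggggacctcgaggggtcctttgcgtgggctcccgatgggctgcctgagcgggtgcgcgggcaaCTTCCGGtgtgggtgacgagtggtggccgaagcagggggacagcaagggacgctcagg

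The base chaperones, which help to assemble the ATPase ring and then leave it, went different ways. PSMD10, also called gankyrin (chromosome X, 108084207 to 108091618, reverse strand), fell with TMM and with ERCC scaling. Its libraries went from 20.2 and 24.6 TPM to 16.4 and 14.3 at 8 h and from 28.2 and 26.0 to 16.3 and 16.2 at 24 h, each below all 4 CNOT1-AID controls. Its log2 change was -0.82 ± 0.073 at 8 h (adjusted p = 4.66e-08) and -0.97 ± 0.073 at 24 h (1.96-fold lower, adjusted p = 2.93e-09), and -0.37 and -0.60 with ERCC scaling (adjusted p = 0.0194 and 0.000418). It has 3 processed pseudogenes by name, whose share of its reads is unknown. PSMD5 rose at both times (log2 0.27 ± 0.069 and 0.55 ± 0.069, adjusted p = 0.00276 and 1.76e-06), and PSMD9 at 24 h (0.26 ± 0.057, adjusted p = 0.000646). The window of PSMD10, the only member lower on both scales at both times, is chrX:108091493-108091792 (RefSeq, GRCh38.p14) and holds 1 match to CCAAT, on the other strand.
PSMD10: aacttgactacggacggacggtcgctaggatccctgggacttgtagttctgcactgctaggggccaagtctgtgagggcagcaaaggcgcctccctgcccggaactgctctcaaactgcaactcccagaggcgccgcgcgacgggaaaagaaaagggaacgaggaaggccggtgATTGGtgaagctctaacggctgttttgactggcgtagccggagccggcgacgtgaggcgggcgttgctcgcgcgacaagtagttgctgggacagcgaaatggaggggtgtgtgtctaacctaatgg

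All 4 activators, which cap the core in place of the base and lid, were higher at 24 h. PSME1 and PSME2 form the interferon-inducible cap, PSME3 the nuclear one and PSME4 one linked to acetylated histones. PSME1, which overlaps EMC9, went from 57.4 and 55.4 to 73.4 and 75.1 TPM at 8 h and from 59.5 and 54.6 to 103.5 and 97.0 at 24 h, above all CNOT1-AID controls. This rise started below parental cells and ended near them. PSME1 went from 31.2% ± 1.7 to 52.4% ± 3.39 of PSMA1 in the same library at 24 h (SD, n = 2). In parental cells it stood at 48.6% ± 2.33 untreated and 50.6% ± 1.84 with auxin at that time. The log2 change of PSME1 in CNOT1-AID cells was 0.10 at 8 h (adjusted p = 0.194) and 0.55 ± 0.065 at 24 h (1.46-fold, adjusted p = 8.88e-07). PSME2, PSME3 and PSME4 were at 0.29, 0.36 and 0.35 at 24 h. At 8 h PSME2 (0.17, adjusted p = 0.017) and PSME3 (0.15, adjusted p = 0.0142) passed, PSME2 not without untreated or auxin replicate 2 (adjusted p = 0.369 and 0.092). All 4 were higher at both times with ERCC scaling.

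**Figure D3:**
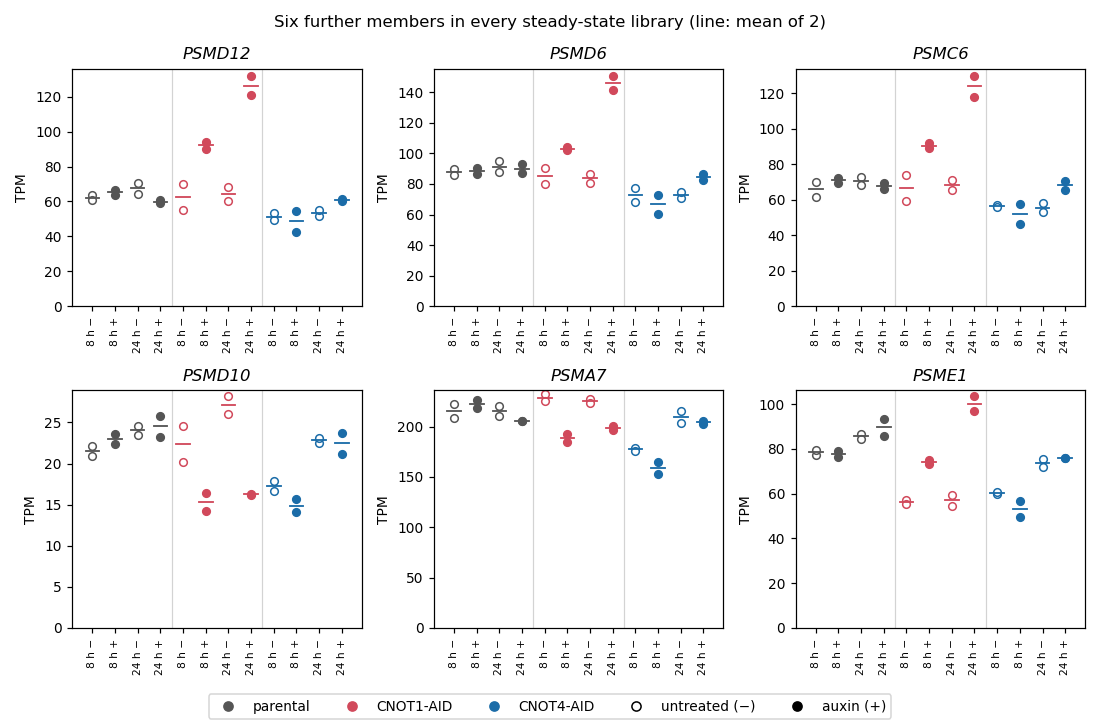
TPM (linear axis from 0) of PSMD12, PSMD6, PSMC6, PSMD10, PSMA7 and PSME1 in all 24 steady-state libraries. Points are libraries, open without and filled with auxin, lines are means of 2, and colours are the 3 lines. PSMD12, PSMD6 and PSMC6 are highest in CNOT1-AID auxin at 24 h, and PSMD10 is lower in CNOT1-AID auxin libraries than in their controls.

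Members as a whole took 0.955% ± 0.0226 of protein-coding TPM in untreated CNOT1-AID cells at 8 h and 0.853% ± 0.00354 with auxin, then 0.919% ± 0.00849 untreated and 0.984% ± 0.0099 with auxin at 24 h (SD, n = 2). In the 8 groups of parental and CNOT4-AID cells the means ran from 0.871% to 0.904%. Sorted by call at both times, 7 members were higher at both times (PSMB8, PSMB9, PSMC6, PSMD5, PSMD12, PSME2 and PSME3), 7 turned from lower to higher (PSMA4, PSMB5, PSMC2, PSMC4, PSMD4, PSMD8 and PSMD11), 7 went from no call to higher, 9 were lower at both times and 9 went from lower to no call. PSMB10 alone turned from higher to lower and PSMD7 alone from no call to lower. These calls are on the TMM scale, and with ERCC scaling PSMD7 was higher at both times (0.49 and 0.24). The test of the change itself, the 24 h response minus the 8 h response, was past the threshold upward in 27 members (17.4% of all genes) and downward in 1, PSMB10 (18.9%). Without untreated CNOT1-AID replicate 1 at 8 h, 2 members were downward. With ERCC scaling 6 were upward (7.51%), PSMB8, PSMB9, PSMD6, PSMD8, PSMD11 and PSME1, and PSMB10 downward (14.5%). By role, 7 of 8 lid genes, 5 of 6 base ATPases, all 3 catalytic subunits and 1 of 4 non-catalytic beta genes were among the 27.

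Motif letters were more frequent in member windows than in all RefSeq windows of the same length. Windows were found for 38 of the 43 members, 45 windows in all. TGACNNNGC was in 13 of 45 (28.9%) and in 13.3% of all 35116 windows, the ETS core in 13 (28.9%) and 10.3%, and the NF-Y box in 19 (42.2%) and 34.6%. The STAT core was in 8 (17.8%) and 7.66%, and the interferon-response core in 6 (13.3%) and 3.57%: those of PSMA4, PSMB4, PSMB8, PSMB10, PSME1 and PSME2. The last 2 motifs were searched after the changes of PSMB8 and PSMB9 were known. A match is only a run of letters, members with several starts count more than once, and no test was made.

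Auxin changed few members in parental and CNOT4-AID cells. In the parental line limma called 0 members higher and 0 lower at 8 h (0.0134% and 0.0067% of all genes) and at 24 h (0% and 0%), with 3 members at an unadjusted p under 0.05 each time. PSMB9 held 1.55 and 1.6 TPM untreated and 2.61 and 2.27 with auxin at 8 h, and 1.51 and 1.45 against 2.12 and 2.83 at 24 h. The auxin libraries were the higher ones at both times, but the log2 changes of 0.42 and 0.58 did not pass (adjusted p = 0.865 and 0.843). CNOT4-AID cells had 0 calls at 8 h by limma (0.241% and 0.0469%; 7 members at an unadjusted p under 0.05), and 0 with ERCC scaling (0.0201% in each direction), as had parental cells at both times (0.0067% higher at 8 h, otherwise 0%). At 24 h 2 members were higher (2.09%) and 0 lower (2.42%; 16 at an unadjusted p under 0.05): PSMD14, the lid's deubiquitinase, at 0.31 ± 0.056 (adjusted p = 0.00917) and the ATPase PSMC2 at 0.22 ± 0.05 (adjusted p = 0.0269). PSMD14 held 45.6 and 48.5 TPM untreated and 67.5 and 59.9 with auxin, and PSMC2 84.2 and 92.5 against 115 and 109, without overlap. These TPM are unscaled, and protein-coding genes took 41.9% and 43.3% of TPM in the untreated libraries against 45.8% in both auxin libraries. The count ranged from 0 to 4 when single CNOT4-AID libraries of 24 h were left out, being 0 without untreated or auxin replicate 1, 4 without untreated replicate 2 and 1 without auxin replicate 2, and was 6 with ERCC scaling (3.16%).

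The difference between the CNOT1-AID and parental responses was tested directly. At 8 h, 5 members responded more in CNOT1-AID cells (27% of all genes) and 16 less (23.2%): PSMB8 (0.43 ± 0.11), PSMB9 (0.94 ± 0.23), PSMD5 (0.30 ± 0.097), PSMD12 (0.31 ± 0.08) and PSME3 (0.25 ± 0.072) were the 5, and PSMD10 (-0.81 ± 0.1) was the lowest. PSMD5 lost its call without CNOT1-AID auxin replicate 1 (adjusted p = 0.0597). At 24 h, 16 responded more (32.3%) and 11 less (29.6%), among them PSMB9 at 2.80 ± 0.23 (adjusted p = 2.05e-08), PSMB8 at 0.97 ± 0.11 (adjusted p = 6.12e-07), PSMD12 at 0.87 ± 0.08 (adjusted p = 7.98e-08) and PSMD10 at -1.01 ± 0.1 (adjusted p = 2.68e-07). All 16 that responded more were among those higher with ERCC scaling, where 27 were higher (42%) and PSMD10 alone lower (13.8%), and at 8 h ERCC scaling gave 25 higher (45.9%) and 0 lower (5.82%). Of the 16 lower at 8 h, 9 or 10 were counted without CNOT1-AID untreated or auxin replicate 1 or without parental untreated or auxin replicate 2, and of the 11 at 24 h 7 without parental auxin replicate 2. For CNOT4-AID minus parental, which shares the parental libraries, limma called 0 members at 8 h (0.0067% in each direction; 5 at an unadjusted p under 0.05) and 0 at 24 h (0.0402% and 0.0268%; 8). PSMB9 was at 2.80 in the first of these differences at 24 h, and none of the 3 immunoproteasome genes passed in the second.

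Before auxin the lines already differed in a number of members. In the untreated steady-state libraries, CNOT1-AID cells had 15 members higher (10.1% of all genes) and 4 lower (10.6%) than parental cells. The 4 were PSME1 (log2 -0.50 ± 0.046, adjusted p = 7.95e-07), PSMB9 (-0.41 ± 0.12, adjusted p = 0.018), PSMB8 (-0.26 ± 0.053, adjusted p = 0.00211) and PSMC4 (-0.11, adjusted p = 0.0476), and the largest rise was PSMC2 at 0.21 ± 0.036 (adjusted p = 0.000447). PSMB9 lost its call in 4 and PSMC4 in 6 of 8 leave-one-out fits (adjusted p up to 0.0751 and 0.169). The count of 15 fell to 8 without parental untreated 8 h replicate 2, CNOT1-AID untreated 8 h replicate 1 or parental untreated 24 h replicate 1, and to 9 without CNOT1-AID untreated 24 h replicate 2, and the count of 4 to 2 without that parental 8 h library or CNOT1-AID untreated 24 h replicate 1. With ERCC scaling 0 were higher (3.03%) and PSMB8, PSMB9 and PSME1 lower (5.76%). CNOT4-AID cells had 3 higher (10.5%), PSMB4, PSMC3 and PSMC5 at 0.14 to 0.17, and PSMC4 lower (9.74%) at -0.22 ± 0.038 (adjusted p = 0.000751), against 7 higher (11.1%) and 0 lower (3.33%) with ERCC scaling. The count of 3 was 1 without CNOT4-AID untreated 8 h replicate 2 or parental untreated 24 h replicate 1.

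After 2 h of auxin and before triptolide, edgeR with TMM scaling called 0 members higher (9.66%) and 2 lower (4.84%) in CNOT1-AID than in parental cells, PSME1 at -0.55 ± 0.082 (adjusted p = 0.000149) and PSMC4 at -0.49 ± 0.082 (adjusted p = 0.000482). DESeq2 called 1 higher. In CNOT4-AID cells PSMC3 was higher (7.88%) at 0.34 ± 0.091 (adjusted p = 0.0192), and PSMC4 (-0.46), PSMA7 (-0.39) and PSME1 (-0.28) were lower (4.09%). Both comparisons use the 2 parental 0 h libraries that agreed least. Without one of them or the other the CNOT1-AID counts became 4 or 15 higher and 10 or 8 lower, and the CNOT4-AID counts 5 or 11 higher and 11 or 9 lower, and with ERCC scaling all 4 counts were 0 (5% higher and 1.02% lower of all genes for CNOT1-AID, 2.88% and 1.06% for CNOT4-AID). Without CNOT4-AID replicate 1 or 2 no member was higher, and without replicate 2 1 was lower. PSMC4 and PSME1 were lower than in parental cells in both sets of CNOT1-AID libraries, which come from the same lines.

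With transcription blocked, most member mRNAs were lost slowly or not measurably over 12 h in parental and CNOT1-AID cells. Slopes in log2 units per hour were fitted with edgeR on ERCC-scaled counts. In parental cells 7 of 41 members fell (48.3% of all genes tested), and the median slope was -0.02 against -0.07 for all genes. The median member stood at 107.6% of its 0 h mean at 3 h, 117.4% at 6 h and 84.91% at 12 h. The straight line was thus fitted to a course that did not fall steadily, and its half-lives are only rough. PSMC6 fell fastest, at -0.10 ± 0.025 per hour (adjusted p = 0.000911), a half-life of 9.96 h (95% interval 6.5 to 21.3), then PSMD7, the partner of PSMD14 in the lid, at -0.092 ± 0.025 (adjusted p = 0.0018; 10.9 h, 6.95 to 25.2). The others were PSMD6, PSMD12, PSMD5, PSMC2 and PSMA5, with half-lives of 12.5 to 16.9 h, beyond the last time sampled. The catalytic and immunoproteasome genes did not pass: PSMB5 was at -0.024, PSMB6 at 0.0021, PSMB7 at -0.0025, PSMB8 at -0.023, PSMB9 at -0.039 and PSMB10 at -0.019, with lower bounds of the half-life from 8.47 h (PSMB9, 14 to 72 counts a library over the set) to 19.5 h. Left out singly, the parental 12 h libraries reduced the 7 to 2 (replicate 1) or 1 (replicate 2), and without both parental 0 h libraries 9 fell. From 0 to 6 h alone no parental slope passed.

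Library by library, PSMC6 at 12 h stood at 48.5% and 39.0% of its 0 h mean in parental cells, 95.9% and 74.7% in CNOT1-AID cells and 24.6% and 13.9% in CNOT4-AID cells. PSMD7 stood at 51.0% and 43.5%, 111% and 89.3%, and 27.6% and 15.9%. The lines did not overlap in either gene. PSMA7, a long-lived member, stood at 107% and 98.7%, 105% and 85.6%, and 86.5% and 49.7%, so parental and CNOT1-AID libraries overlapped. At 6 h the second parental library lay above its 0 h mean for PSMC6 (114.5% against 67.7% in the first).

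**Figure D4:**
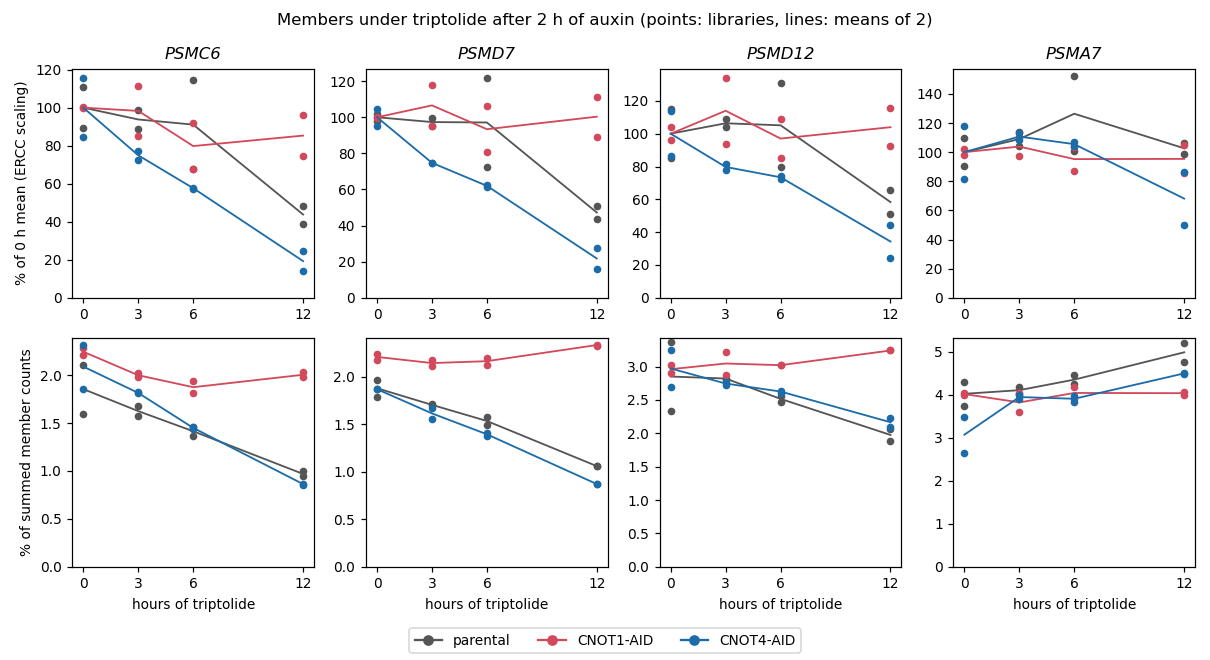
PSMC6, PSMD7, PSMD12 and PSMA7 against hours of triptolide after 2 h of auxin, as percent of the 0 h mean with ERCC scaling (top) and as percent of all member counts in the same library (bottom). Points are libraries, lines join means of 2, and both axes start at 0. By 12 h PSMC6 and PSMD7 lose share in parental and CNOT4-AID cells, while in CNOT1-AID cells PSMD7 stays at 2.33% and 2.34% of member counts.

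In CNOT1-AID cells edgeR called no member falling (10.9% of all genes), with 0 at an unadjusted p under 0.05 and 0 by DESeq2, and the median slope was -0.0092 against -0.026 for all genes. The slope difference from parental cells was past the threshold in 0 members upward (18.8%) and 0 downward (0.94%), with 2 at an unadjusted p under 0.05 and 1 called by DESeq2. PSMD7 was closest at 0.088 ± 0.033 (adjusted p = 0.0526), followed by PSMC6 at 0.079 (adjusted p = 0.106). Single libraries moved the upward count from 0 to 1 or 2: 1 without either parental 0 h library or CNOT1-AID 3 h replicate 2, and 2 without parental 6 h replicate 2. Without both parental 0 h libraries it was 3. On the TMM scale, which sets the bulk of genes to no change, PSMD7 was higher in CNOT1-AID than in parental cells (0.049 ± 0.014, adjusted p = 0.007; 20.5% of all genes) and 16 members were lower (15.7%), the largest being PSME2 at -0.067.

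The share of a gene in all member counts of its library involves no scaling. PSMD7 took 1.79% and 1.97% of member counts at 0 h and 1.06% in both libraries at 12 h in parental cells, 2.24% and 2.18% then 2.33% and 2.34% in CNOT1-AID cells, and 1.87% in both then 0.869% and 0.873% in CNOT4-AID cells. PSMC6 went from 1.6% and 2.11% to 0.995% and 0.943%, from 2.28% and 2.21% to 2.03% and 1.98%, and from 2.32% and 1.86% to 0.869% and 0.857%. PSMD12 went from 2.34% and 3.36% to 2.06% and 1.89%, from 2.9% and 3.02% to 3.24% in both, and from 3.24% and 2.7% to 2.23% and 2.1%. In all 3 genes the parental and CNOT4-AID libraries at 12 h lay below those at 0 h, and in CNOT1-AID cells PSMD7 and PSMD12 lay above.

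CNOT4-AID cells showed the steepest fitted slopes, with 41 of 41 members falling (85.6% of all genes) and a median of -0.087 against -0.15 for all genes. Half-lives ran from 5.02 h (PSMC6) to 19.9 h (PSME1), with a median of 11.5 h and 20 beyond 12 h. These calls rested on the 12 h libraries with the large spike-in shares: 3 members fell without both and 20 without replicate 2. With TMM scaling only PSMC6 and PSMD7 fell (34.2%), and 32 members rose (27.1%), as did 32 in parental (27.3%; PSMC6 alone fell, 31.2%) and 11 in CNOT1-AID cells (4.8%; 0 fell, 9.39%). Against parental cells edgeR called 0 slopes higher (0%) and 0 lower (0.845%), with 19 at an unadjusted p under 0.05 and 13 lower by DESeq2, 26 lower without CNOT4-AID 12 h replicate 1 and 1 without parental 6 h replicate 2. Between the tagged lines 20 slopes were higher in CNOT1-AID cells (51.5%) and 0 lower (0.202%), PSMD7 by 0.18 ± 0.033 and PSMC6 by 0.18 ± 0.034. That count was 0 without both CNOT4-AID 12 h libraries, 35 and 7 without replicate 1 or 2 of them, and 12 and 9 without replicate 1 of CNOT1-AID at 0 h or 12 h. PSMD7 and PSMC6 were the 2 members higher also with TMM scaling (0.069 and 0.066, adjusted p = 0.000369 and 0.00339; 23% of all genes), where 20 were lower (16.7%).

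Members with the steeper fall in parental cells tended to stand higher after auxin in CNOT1-AID cells. Across the 41 tested members the parental slope and the CNOT1-AID response at 24 h had a Pearson r of -0.27 and a Spearman rho of -0.41, and at 8 h -0.36 and -0.42, against an r of -0.46 and -0.55 over 11775 protein-coding genes. These values describe genes, which are not independent replicates and whose libraries share spike-in and depth. All 7 members that fell under triptolide in parental cells, PSMC6, PSMD7, PSMD6, PSMD12, PSMD5, PSMC2 and PSMA5, were tested at 24 h. With TMM scaling 6 were higher there, where 21 of 41 members and 36.7% of all genes were, and PSMD7 was lower at -0.14 (adjusted p = 0.0106). With ERCC scaling PSMD7 was higher at 0.24 (adjusted p = 0.0408), as were the others, where 30 of 41 members and 47% of all genes were. Without 1 parental 12 h library or the other, only 2 or 1 of these 7 slopes would be counted. PSMB8, PSMB9 and PSMD10 changed more at 24 h than these while their parental slopes did not pass. Member transcripts were short, with a median of 1579 bases, 828 coding and 302 in the 3′ UTR, against 3021, 1401 and 950 for all protein-coding genes tested.

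**Figure D5:**
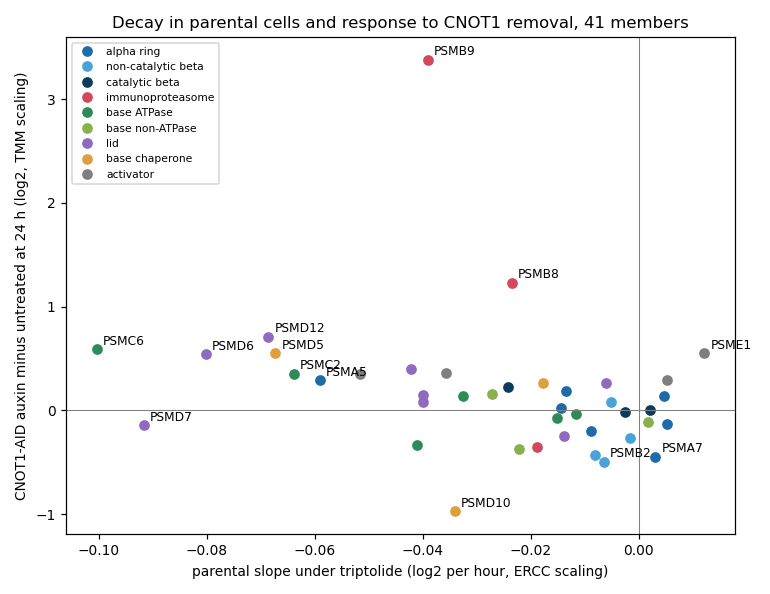
For each of the 41 tested members, the parental slope under triptolide (x axis, log2 per hour, ERCC scaling) against the CNOT1-AID auxin response at 24 h (y axis, log2, TMM scaling), coloured by role. PSMC6, PSMD7, PSMD6 and PSMD12 lie farthest to the left, and PSMB9 and PSMB8 lie above the rest at slopes that did not pass the test.

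Genes that work with the proteasome were followed as lists drawn up from textbook roles, to be read against 33.1% of all genes higher and 29.8% lower at 8 h and 36.7% and 34.8% at 24 h. With ERCC scaling these shares were 52.1% and 9.85% at 8 h and 47% and 19.4% at 24 h. Of 16 assembly factors and remaining subunits, 4 were higher and 2 lower in CNOT1-AID cells at 8 h and 7 and 2 at 24 h (12 and 0, then 11 and 1, with ERCC scaling). With TMM scaling the share higher was below that of all genes at 8 h and above it at 24 h. With ERCC scaling it was above at both times, and none of this was tested. AKIRIN2, which carries proteasomes into the nucleus, rose by 1.41 and 1.73, and UBLCP1, a phosphatase of the base, by 0.54 and 0.62. The core assembly chaperone PSMG3 fell by 0.57 and 0.63 on the log2 scale, POMP, another, by 0.27 at 8 h, and ECPAS, which binds proteasomes, by 0.25 at 24 h. With ERCC scaling POMP at 8 h and ECPAS at 24 h turned to 0.19 and 0.12, and PSMG3 kept its sign (-0.11 and -0.26). Of 10 regulators of proteasome gene transcription, 7 were higher and 2 lower at 8 h and 6 and 2 at 24 h (7 and 0, then 8 and 1, with ERCC scaling). Among them NFE2L2 rose by 1.22 and 1.39, and SYVN1, a ligase of the endoplasmic reticulum that acts on NFE2L1, by 1.04 and 1.30. NFE2L1 itself rose by 0.50 and 0.77 (adjusted p = 2.02e-07 and 5.6e-10), while NFE2L3 fell by 0.46 and 0.64 (-0.00070 and -0.27 with ERCC scaling).

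Of 10 interferon and antigen presentation genes, 7 were higher and 2 lower at 8 h and 5 and 2 at 24 h (8 and 1, then 7 and 1, with ERCC scaling). IRF1 rose by 1.31 and 0.87, NLRC5, the activator of MHC class I genes, by 0.78 and 1.25, IRF9 by 0.43 and 1.55, and the peptide transporter TAP1, which overlaps PSMB9, by 0.19 and 0.87. B2M (-0.84 and -0.63) and TAPBP (-0.53 and -1.07), which serve the same presentation pathway, fell and stayed below 0 with ERCC scaling. Of 14 genes of ubiquitin supply and delivery, 3 were higher and 6 lower at 8 h and 6 and 7 at 24 h (8 and 0, then 7 and 1, with ERCC scaling), with no test against the shares of all genes given above, among them UBQLN2 (0.69 and 1.04) upward and UFD1 (-0.63 and -0.75) downward. Other stable complexes gave a mixed picture beside the proteasome: of 78 tested cytosolic ribosomal protein genes 73 were lower at 8 h and 57 at 24 h (medians -0.44 and -0.27), and of 8 chaperonin ring genes 5 and 1 (medians -0.17 and -0.01), where the members had medians of -0.18 and 0.14. With ERCC scaling 6 ribosomal protein genes were higher and 5 lower at 8 h and 25 and 10 at 24 h, and 6 and 8 chaperonin genes were higher.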

How the data were processed

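RNA was sequenced in 24 steady-state and 24 triptolide libraries. The libraries were made from 500 ng of RNA with 2 µl of ERCC mix diluted 1 in 200, by a stranded total RNA kit with ribosomal depletion, per the labels' protocols. The steady-state table as deposited by the authors holds TPM values, and the triptolide table as deposited holds raw counts per gene. STAR 2.5.1b, RSEM, featureCounts, SAMtools and DESeq2 are named in the submitters' processing notes, on GRCh38, without roles, and whether strand was used in counting is not given in the sources used here. The nascent RNA that the labels mention was not analysed here.

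TPM were tested with limma 3.58.1 (R 4.3.3, trend and robust) on log2(TMM-scaled TPM + 0.5), over 14921 genes with at least 1 TPM in at least 2 libraries, in 1 fit of 12 groups (12 residual degrees of freedom). Counts were tested with edgeR 4.0.16 (robust quasi-likelihood) over 16806 genes: a linear slope per line on ERCC-scaled counts (18 residual degrees of freedom) and the 0 h differences on TMM-scaled counts. Adjusted p-values are Benjamini-Hochberg over all genes tested, from these tools. ERCC scaling used the 48 sequences with a mean of at least 1 TPM, or the 56 with a mean of at least 10 counts. It relates RNA to a fixed RNA input, not to cells. DESeq2 1.42.0, other scalings, filters and pseudocounts, a replicate block and leaving out libraries were alternatives. The scripts were tested on simulated data. Library totals set the counting precision of the triptolide set.

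Named in each comparison were the catalytic and immunoproteasome genes and, per other role, the largest rise and fall past the threshold. From each partner list up to 2 risers and 2 fallers were named, and some items are not reported here. PSMD9, PSME3, PSME4, NFE2L1, TAP1 and the examples without calls were chosen after their values were seen. The members and lists were chosen with earlier results of these data known.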

Additional observations from a re-analysis of the deposited data

Results flagged for a closer look

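The results below differed between groups under the same contrast by a direct test (limma or edgeR, adjusted over all genes). With TMM scaling, the auxin response of CNOT1-AID cells exceeded that of parental cells in 5 members at 8 h (27% of all genes). It was below the parental response in 16 (23.2%). The 5 differed by a log2 of 0.4344 for PSMB8, 0.9413 for PSMB9, 0.3041 for PSMD5, 0.3108 for PSMD12 and 0.2469 for PSME3. With ERCC scaling these 5 were also higher, whereas 0 of the 16 were lower and 2 were higher. At 24 h the CNOT1-AID response exceeded the parental one in 16 members (32.3% of all genes) and was below it in 11 (29.6%). Of these 11 only PSMD10 was also lower with ERCC scaling. The higher ones included PSMA5 (0.2754), PSMB5 (0.2108), PSMB8 (0.9731), PSMB9 (2.8015), PSMC6 (0.6361), PSMD5 (0.5929), PSMD12 (0.8708) and PSME1 (0.4748), and PSMD10 (-1.0064) was among the lower. The PSMA5 call was lost in 6 of 8 fits that each left out a library (adjusted p up to 0.101), and the PSMB5 call in 2 of 8, without parental untreated replicate 2 (0.0771) or CNOT1-AID untreated replicate 1 (0.0902).

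Within CNOT1-AID cells and with TMM scaling, the response at 24 h was above that at 8 h in 27 members (17.4% of all genes). It was below that at 8 h in 1 (18.9%). PSMB9 differed by 2.021, PSMB8 by 0.8475, PSMD6 by 0.5626 and PSME1 by 0.4486 on the log2 scale, and PSMB10 by -0.6382. These 5 held with ERCC scaling.

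With ERCC scaling, the triptolide slope of CNOT1-AID cells was above that of CNOT4-AID cells in 20 members (51.5% of all genes). With TMM scaling 20 were lower (16.7%), and only PSMC6 and PSMD7 were higher on both scales. With ERCC scaling these 2 were higher by 0.1772 and 0.1797 log2 units per hour. Without both CNOT4-AID libraries at 12 h, a choice made after seeing the data, the differences were 0.1107 (adjusted p = 0.0766) and 0.1118 (adjusted p = 0.0592), and 0 members passed by edgeR.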

How the results depend on the processing

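Scaling moved more results than any other choice, and beyond the fewer genes or libraries an alternative holds the cause was not tested. Shares of all genes called were computed for TMM and ERCC scaling only. Counts under the other alternatives have no such share beside them and do not set the members apart from other genes. With ERCC scaling, CNOT1-AID cells had 25 members higher and 1 lower at 8 h and 1 lower at 24 h, and CNOT4-AID cells 6 higher at 24 h. For CNOT1-AID minus parental the counts were 25 and 0 at 8 h and 27 and 1 at 24 h, for 24 h minus 8 h 6 higher, for untreated CNOT1-AID 0 higher, for untreated CNOT4-AID 7 and 0, and at 0 h 0 in each direction. Log2 values that turned positive in CNOT1-AID cells at 8 h were PSMB5 0.2894, PSMB6 0.0232, PSMB7 0.0549, PSMC1 0.0113 and PSMD1 0.0872, and at 24 h PSMB7 0.3671, PSMB10 0.0141, PSMC5 0.0471, PSMD1 0.0019 and PSMD13 0.1334. In the difference from parental cells they were, at 8 h, PSMB1 0.018, PSMB5 0.4036, PSMB6 0.1914, PSMB7 0.1655, PSMC1 0.1613, PSMD1 0.2563 and PSMD13 0.0775, and at 24 h PSMA7 0.0202, PSMB6 0.3495, PSMB7 0.3851, PSMB10 0.0326, PSMC5 0.0647 and PSMD13 0.1115. At 0 h PSME1 in CNOT4-AID cells became 0.0062.

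With no further scaling of TPM, CNOT1-AID cells had 14 higher and 5 lower at 8 h and 3 lower at 24 h, CNOT4-AID cells 0 higher at 24 h, the difference from parental cells 8 and 2 at 8 h and 2 lower at 24 h, 24 h minus 8 h 13 higher, untreated CNOT1-AID 1 higher, and untreated CNOT4-AID 0 higher and 36 lower. Reversed were PSMB5 at 8 h (0.1193), PSMB7 and PSMD13 at 24 h (0.2495 and 0.0156) and, in untreated CNOT4-AID cells, PSMB4 (-0.1233), PSMB5 (-0.1647), PSMB6 (-0.1773), PSMB7 (-0.2124) and PSMC5 (-0.0983). Protein-coding genes took 37.8% to 43.3% of TPM in untreated CNOT4-AID libraries against 44.2% to 47.8% in untreated parental ones, a difference left in place without further scaling. Median-of-ratios scaling gave 6 higher in untreated CNOT4-AID cells. Without a filter CNOT4-AID cells had 1 higher at 24 h and 2 at 0 h, and CNOT1-AID minus parental 7 lower at 24 h. A pseudocount of 0.1 or 1 changed 0 or 1 call of a named member.

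Slopes with TMM scaling gave 32, 11 and 32 members higher in parental, CNOT1-AID and CNOT4-AID cells and 1 and 2 lower in parental and CNOT4-AID cells. The differences became 1 higher and 16 lower (CNOT1-AID minus parental) and 2 and 20 (CNOT1-AID minus CNOT4-AID). Reversed slopes were, in parental cells, PSMA5 0.0125, PSMB5 0.0473, PSMB7 0.0681, PSMB8 0.0472, PSMB10 0.0545 and PSMD5 0.0013, in CNOT1-AID cells PSMB5 0.0252 and PSMB7 0.024, and in CNOT4-AID cells PSMB1 0.0549, PSMB5 0.0537, PSMB6 0.0704, PSMB7 0.0752, PSMB8 0.0579, PSMB9 0.0307, PSMB10 0.0734, PSMD1 0.0498 and PSME4 0.0182. Between the tagged lines they were PSMB1 -0.0281, PSMB5 -0.0285, PSMB7 -0.0512, PSMB10 -0.0597 and PSMD4 -0.0281. With library totals alone, 15 parental and 17 CNOT4-AID slopes were higher and 8 CNOT4-AID slopes lower, with 6 and 2 differences from parental cells and 8 and 6 from CNOT4-AID cells in CNOT1-AID cells. Reversed were PSMB7 in parental cells (0.0264) and, in CNOT4-AID cells, PSMB1 0.0152, PSMB5 0.014, PSMB6 0.0307, PSMB7 0.0354, PSMB8 0.0182, PSMB10 0.0337 and PSMD1 0.01. From 0 to 6 h, 0 parental and 3 CNOT4-AID slopes were lower and 0 differences between the tagged lines higher, with PSMA5 at 0.0183 and PSMD5 at 0.0036 in parental cells. DESeq2 gave 1 slope difference higher in CNOT1-AID than in parental cells, 13 lower in CNOT4-AID cells, 1 CNOT1-AID gene higher at 0 h and 6 CNOT4-AID genes lower. Without both CNOT4-AID 12 h libraries 3 of their slopes were lower and 0 differences between the tagged lines higher, and without both parental 0 h libraries 3 differences from parental cells were higher, both choices made after seeing the data.

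Leaving out 1 library at a time, the counts of members ran as follows. For the response difference CNOT1-AID minus parental 8 h, 4 to 7 were higher and 9 to 19 were lower. For untreated CNOT1-AID minus parental, 8 to 19 were higher and 2 to 4 were lower. For untreated CNOT4-AID minus parental, 1 to 4 were higher. For CNOT1-AID 8 h, 4 to 8 were higher and 17 to 23 were lower. For the response difference CNOT1-AID 24 h minus 8 h, 23 to 30 were higher and 1 to 2 were lower. For the response difference CNOT1-AID minus parental 24 h, 12 to 16 were higher and 7 to 9 were lower. For CNOT1-AID 24 h, 17 to 18 were higher and 9 to 11 were lower. For CNOT4-AID 24 h, 0 to 4 were higher. For the slope in parental, 1 to 9 were lower. For the slope difference CNOT1-AID minus parental, 0 to 2 were higher. For the slope difference CNOT4-AID minus parental, 0 to 26 were lower. For the slope difference CNOT1-AID minus CNOT4-AID, 7 to 35 were higher. For the slope in CNOT4-AID, 20 to 41 were lower. For the 0 h difference CNOT1-AID minus parental, 0 to 15 were higher and 2 to 10 were lower. For the 0 h difference CNOT4-AID minus parental, 0 to 11 were higher and 1 to 11 were lower.

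The replicate block gave 8 higher and 24 lower members in CNOT1-AID cells at 8 h, 21 and 11 at 24 h, and 6 lower parental slopes. It ended 3 calls of named members and changed no other, 208 staying as they were. Equal numbers did not pair the libraries: the correlation of their deviations between compared groups ran from -0.22 to 0.10. With replicate numbers crossed in 1 group, after seeing the data, the counts were 8 and 25 at 8 h.

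The depth behind the TPM is unknown. Depth limits PSMB9 most in the triptolide set, with 14 to 72 counts a library, and 2 libraries a group limit all tests.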
